A study of Mus musculus with 12 samples.

Results

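Glycolysis converts glucose to pyruvate, and several of its steps are catalysed by isozymes, closely related enzymes that are encoded by separate genes and made in different tissues. The isozymes of 4 enzymes were compared: aldolase (Aldoa and Aldoc), enolase (Eno1, Eno2 and Eno3), phosphoglycerate mutase (Pgam1 and Pgam2) and lactate dehydrogenase (Ldha, Ldhb and Ldhc). Within each enzyme the genes differ in where they are best known. Eno1 and Pgam1 are made in most cells, Aldoa in most cells and at a high level in muscle, and Ldha is the lactate dehydrogenase of glycolytic tissue. Eno3 and Pgam2 are the muscle forms, Aldoc and Eno2 are best known from brain and neurons, Ldhb from heart and other oxidative tissue, and Ldhc from male germ cells. Cartilage has no blood vessels and its chondrocytes rely largely on glycolysis. The 10 genes were taken by name, with earlier results of these data known. They are 10 of the 14689 gene names in the normalized table. They have 15 probes among the 45281 of the array, and 13 of these are among the 21004 probes of that table.

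Illumina BeadChips, on which each probe is a short DNA sequence carried by beads, were used to measure RNA of mouse hip cartilage. The 12 arrays form 4 groups of 3, since WT and Mapk9 KO mice each gave control and injured samples. All mice were C57BL6 and 4 to 6 weeks old, and Mapk9 encodes a c-Jun N-terminal kinase. The WT mice carried no other listed allele, and the Mapk9 KO mice are labelled as a knock-out, with no cell type or promoter named. In the methods of the study, the femoral epiphysis was avulsed and the cartilage was either snap-frozen at once (control) or cultured for 4 h in serum-free medium (injured), so the avulsion is common to every group, and the effect of injury and the effect of culture cannot be told apart. Hips of several animals were pooled for each array. The Mapk9 KO samples are not described there, and were taken to have been handled likewise.

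Values are log2 expression of the normalized table, and a probe was called detected on an array when its detection p-value, the share of negative control probes that were brighter, was under 0.05. Between 16930 and 18969 probes of the array were detected per array, and the number of arrays limits the precision. A Mapk9 probe had log2 values of 10.05 to 10.90 on the 6 WT arrays and of 8.69 to 9.28 on the 6 Mapk9 KO arrays, and another was detected on 4 WT arrays and on 0 Mapk9 KO arrays, in the direction of the labels. Of 14 chondrocyte genes, 11 were in the table and were detected on every array, and Col9a3, Matn3 and Cnmd were outside it and detected on 0 arrays. Of 22 skeletal muscle genes, all were in the table, and between 16 and 22 were detected per array, so the samples held muscle RNA beside that of cartilage. Of 8 red cell genes, 6 were in the table and were detected on every array. Of 12 neutrophil and macrophage genes, 11 were in the table and 10 or 11 were detected per array, so RNA of these cells was present too.

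Because isozymes are alike in sequence, the probes were compared with each other first. The 50-base probes of different isozymes shared runs of at most 7 bases on the same strand, except for an Eno1 and the Eno3 probe, which shared 20 bases. The 4 probes below are shown because that shared run (capitals) bears on how far Eno1 and Eno3 can be separated, and because the Ldhb and Ldhc probes carry the values whose naming or size most needs the sequence. They are copied 5′ to 3′ from the deposited table.
Eno1 probe 2: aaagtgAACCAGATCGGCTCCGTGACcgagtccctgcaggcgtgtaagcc
Eno3 probe 1: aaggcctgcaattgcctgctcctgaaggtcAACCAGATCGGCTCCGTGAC
Ldhb probe 1: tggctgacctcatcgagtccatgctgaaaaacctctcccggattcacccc
Ldhc probe 1: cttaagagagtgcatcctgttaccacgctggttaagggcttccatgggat
The 20 shared bases stand at the 3′ end of the Eno3 probe and nearer the 5′ end of Eno1 probe 2. The other Eno1 probe shares at most 5 bases in a row with the Eno3 probe on the same strand. The Ldhb probe is listed as Ldh2, an older name of Ldhb, in the normalized table and as a predicted gene (EG433229) in the intensity table, so its name is less certain than the others. Eno1 probe 1 is likewise listed under a predicted gene (LOC100045967) in the intensity table. Matches of the probes to related genomic copies were not analysed here.

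A probe counted as changed when limma gave it an adjusted p (Benjamini-Hochberg, over the whole table of 21004 probes) under 0.05 and a change of more than 2-fold. In WT, 6 of the 13 isozyme probes rose post injury, those of 4 genes (Aldoc, Eno1, Pgam1 and Ldhc), against 7.55% of all probes. The probes of Eno3 and Pgam2 fell in WT, 2 of 13, against 7.14% of all probes. In Mapk9 KO, 8 probes of 5 genes rose, with Eno2 added to the same 4, against 9.59% of all probes. One of the 8, Pgam1 probe 2, was detected on 0 control arrays and was past 2-fold only by its fitted values. The 3 probes of Eno3, Pgam2 and Ldhb fell in Mapk9 KO, against 9.14% of all probes. The median difference of the 13 probes was 1.05 on the log2 scale in WT and 1.21 in Mapk9 KO, and that of all probes was -0.024 and -0.0174. Both muscle forms therefore stood among the probes that fell, and the germ cell form of lactate dehydrogenase among those that rose.

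**Figure D1:**
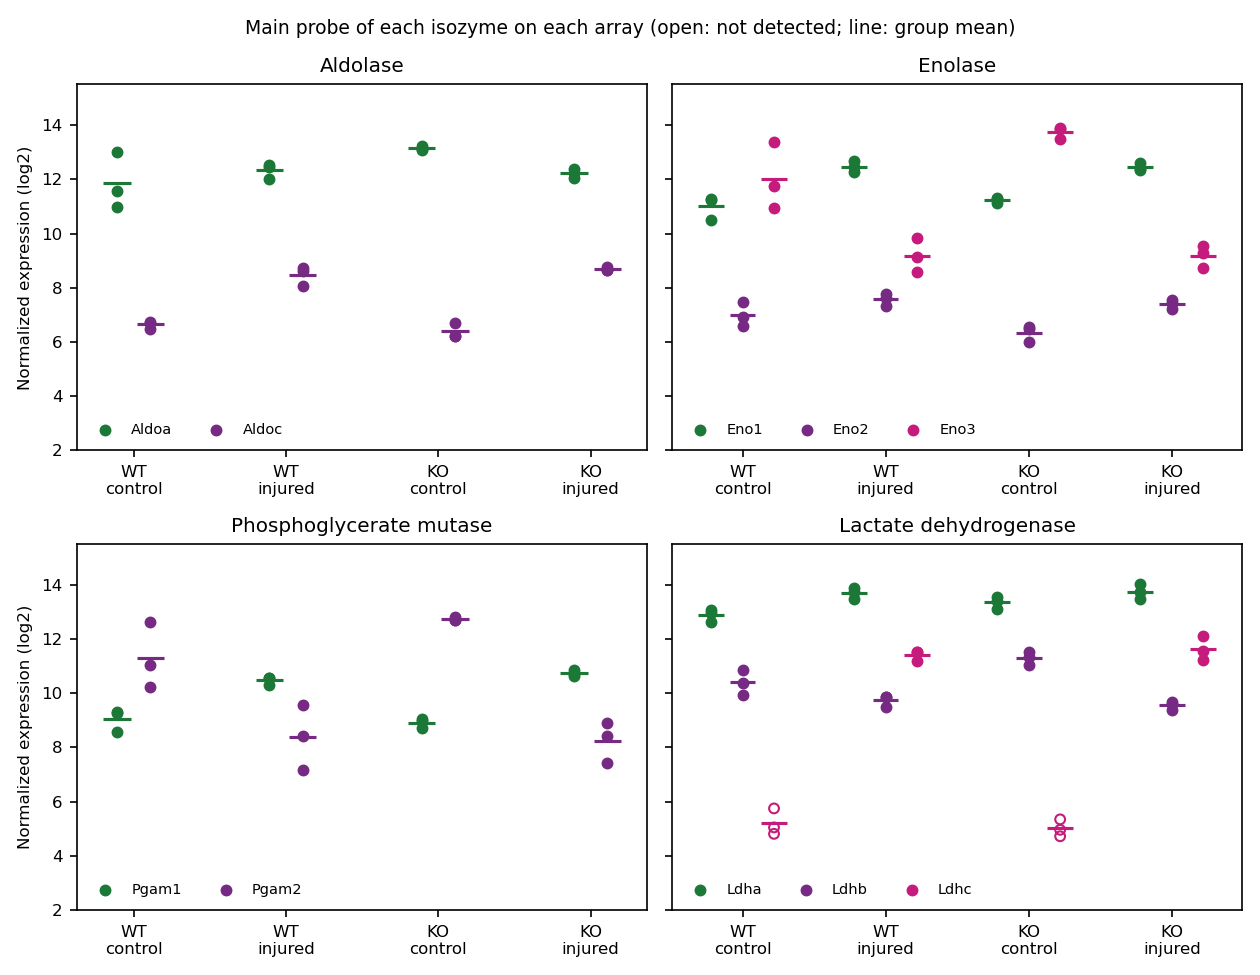
Normalized expression (log2, vertical axis) of the brightest probe of each isozyme on each of 12 arrays, in 4 panels, one per enzyme. Points are arrays, lines are group means (n = 3) and open points were not detected. Eno3 and Pgam2 lie lower in the injured than in the control arrays of both genotypes, and Ldhc was detected on the injured arrays only. Heights of different probes are not comparable.

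Aldolase splits fructose 1,6-bisphosphate into the triose phosphates. Aldoc had log2 values of 6.70, 6.49 and 6.73 in WT control and of 8.06, 8.74 and 8.61 in WT injured. In Mapk9 KO it had 6.23, 6.71 and 6.22 in the control and 8.65, 8.67 and 8.75 in the injured arrays. Every injured array was above every control array in both genotypes. The rise was 3.55-fold in WT (log2 difference 1.83 ± 0.23, SE; adjusted p = 0.000365, limma) and 4.94-fold in Mapk9 KO (2.31 ± 0.19; adjusted p = 5.78e-06). With quantile normalization and no background correction the log2 differences were smaller, 1.16 and 1.45, and still passed. A further Aldoc probe, outside the normalized table, was detected on 0 arrays.

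Aldoa had log2 values of 11.55, 10.99 and 13.02 in WT control and of 12.01, 12.46 and 12.53 in WT injured. Control replicate 3 was above all injured arrays and the other controls were below them, so the groups overlapped (difference 0.48 ± 0.43; adjusted p = 0.459, limma). Without WT control replicate 3 the difference was 1.06 and passed the threshold (adjusted p = 0.0179), and without WT control replicate 2 it was 0.05 (adjusted p = 0.940). In Mapk9 KO, Aldoa had 13.21, 13.08 and 13.12 in the control and 12.04, 12.39 and 12.23 in the injured arrays. Here every injured array was below every control array, and the difference of -0.92 ± 0.17 passed the adjusted p (0.00175, limma) but, at 1.89-fold, not the fold limit. In 1 fit to all 12 arrays the SE was 0.37 and the adjusted p did not pass (0.0659). The difference between genotypes in this injury effect was -1.40 and did not pass (adjusted p = 0.397).

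Enolase makes phosphoenolpyruvate. Eno1 probe 1 had log2 values of 11.25, 10.50 and 11.27 in WT control and of 12.28, 12.66 and 12.45 in WT injured. In Mapk9 KO the same probe had 11.11, 11.32 and 11.26 in the control and 12.33, 12.61 and 12.39 in the injured arrays. The groups did not overlap in either genotype. Eno1 rose 2.75-fold in WT (1.46 ± 0.25; adjusted p = 0.00236, limma) and 2.31-fold in Mapk9 KO (1.21 ± 0.17; adjusted p = 0.000277). Probe 2, which shares the 20-base run with the Eno3 probe, gave 2.49-fold in WT (adjusted p = 0.0154) and 2.43-fold in Mapk9 KO (adjusted p = 0.000149). It therefore moved with Eno1 probe 1 and opposite to the Eno3 probe. In WT, neither probe passed the methods' t-test (adjusted p = 0.0518 and 0.138). The WT call of probe 2 was also lost with normexp background correction and quantile normalization (adjusted p = 0.0525) and, through the fold limit, without WT control replicate 2 (log2 difference 0.88).

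Eno2, the neuronal form, was detected on all arrays. Its log2 values were 7.47, 6.60 and 6.91 in WT control and 7.76, 7.64 and 7.32 in WT injured, and control replicate 1 was above injured replicate 3. The difference of 0.58 ± 0.25 did not pass the threshold (adjusted p = 0.127, limma). In Mapk9 KO it had 6.55, 5.99 and 6.47 in the control and 7.43, 7.21 and 7.55 in the injured arrays, with no overlap. Eno2 rose 2.09-fold there (1.06 ± 0.20; adjusted p = 0.00183), close to the fold limit. The call was lost when Mapk9 KO control replicate 2 or Mapk9 KO injured replicate 3 was left out (0.89 and 0.99 on the log2 scale). It was also lost with quantile normalization and no background correction (0.55). The injury effects of both genotypes did not differ past the threshold (difference 0.48; adjusted p = 0.664).

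Eno3, the muscle form, moved the other way. Its log2 values were 11.76, 10.94 and 13.37 in WT control and 8.59, 9.13 and 9.85 in WT injured. In Mapk9 KO they were 13.91, 13.86 and 13.47 in the control and 9.30, 9.54 and 8.72 in the injured arrays. All injured arrays lay below all control arrays, whichever the genotype. Eno3 fell 7.14-fold in WT (-2.84 ± 0.53; adjusted p = 0.00388, limma) and 23.6-fold in Mapk9 KO (-4.56 ± 0.23; adjusted p = 3.08e-07). The WT control arrays differed from each other more than the Mapk9 KO control arrays did (SD 1.24 and 0.24).

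Phosphoglycerate mutase moves the phosphate of 3-phosphoglycerate. Pgam1 probe 1 had log2 values of 9.26, 8.58 and 9.32 in WT control and of 10.29, 10.55 and 10.57 in WT injured. The same probe in Mapk9 KO had 8.98, 8.71 and 9.05 in the control and 10.63, 10.70 and 10.87 in the injured arrays. The groups did not overlap. Pgam1 rose 2.67-fold in WT (1.41 ± 0.24; adjusted p = 0.00229, limma) and 3.53-fold in Mapk9 KO (1.82 ± 0.18; adjusted p = 1.99e-05). Pgam1 probe 2 was dim and was detected on 3 of 12 arrays, all injured. It was not called in WT (1.05 ± 0.43; adjusted p = 0.104), unless the replicate number (adjusted p = 0.00681) or the number in the sample code (adjusted p = 0.0333) was a block, or WT control replicate 3 or WT injured replicate 1 was left out (1.44 and 1.49 on the log2 scale), and in Mapk9 KO it was at least 1.13-fold higher (adjusted p = 0.000175), with 2 of 3 injured arrays detected.

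Pgam2, the muscle form, had log2 values of 11.05, 10.25 and 12.63 in WT control and of 7.18, 8.43 and 9.57 in WT injured. Pgam2 in Mapk9 KO had 12.72, 12.80 and 12.72 in the control and 8.41, 8.90 and 7.42 in the injured arrays. The lowest control array was above the highest injured array in each genotype. Pgam2 fell 7.54-fold in WT (-2.91 ± 0.64; adjusted p = 0.00848, limma) and 22.6-fold in Mapk9 KO (-4.50 ± 0.31; adjusted p = 1.85e-06). As with Eno3, the spread of the WT control arrays was wider than that of the Mapk9 KO control arrays (SD 1.21 and 0.0467). In WT, the falls of Eno3 and Pgam2 ranged from -2.16 to -3.38 and from -2.25 to -3.50 with 1 array left out, and were smallest without WT control replicate 3. The largest values came without WT control replicate 2 for Eno3 and without WT injured replicate 3 for Pgam2. Neither passed the methods' t-test in WT (adjusted p = 0.104 and 0.142), which does not pool the spread over probes.

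Lactate dehydrogenase interconverts pyruvate and lactate. Ldha had log2 values of 13.09, 12.64 and 12.97 in WT control and of 13.75, 13.90 and 13.50 in WT injured. The groups did not overlap, and the difference of 0.82 ± 0.21 passed the adjusted p (0.0187, limma) but, at 1.76-fold, not the fold limit. The Mapk9 KO arrays had 13.42, 13.57 and 13.12 in the control and 13.74, 14.02 and 13.49 when injured, with overlap (0.38 ± 0.20; adjusted p = 0.167). Ldha was thus not called in either genotype.

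Ldhb, the form of oxidative tissue, had log2 values of 10.39, 9.94 and 10.87 in WT control and of 9.51, 9.85 and 9.85 in WT injured. The WT groups came close without overlap, and the difference of -0.66 ± 0.26 did not pass (adjusted p = 0.0867, limma). With 1 array left out it ranged from -0.89 to -0.43, under the fold limit throughout. The adjusted p alone passed without WT control replicate 2 (0.0193) and in 1 fit to all 12 arrays (0.0390). Ldhb in Mapk9 KO had 11.06, 11.33 and 11.53 in the control and 9.61, 9.66 and 9.39 in the injured arrays, well apart. Ldhb fell 3.37-fold there (-1.75 ± 0.19; adjusted p = 3.86e-05). The difference between the injury effects of the genotypes was -1.09 ± 0.32 for Ldhb and did not pass (adjusted p = 0.324, limma).

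Ldhc had the largest change of the 13 probes, in both genotypes. Ldhc probe 1 was detected on 0 of 6 control arrays, with log2 values of 5.05, 5.75 and 4.81 in WT and 4.72, 5.35 and 4.96 in Mapk9 KO, and on 6 of 6 injured arrays, with 11.53, 11.51 and 11.20 in WT and 11.58, 12.10 and 11.24 in Mapk9 KO. Because the control values were not above the negative controls, the change is given as a bound against the lowest value of a detected probe on each control array. Ldhc was at least 47.4-fold higher post injury in WT (adjusted p = 9.97e-07, limma) and at least 52.1-fold higher in Mapk9 KO (adjusted p = 6.47e-08). Ldhc probe 2 was likewise detected on the 6 injured arrays only, with values of 9.82 to 10.30 in WT and 9.84 to 10.60 in Mapk9 KO, and gave at least 18.9-fold and at least 19.2-fold (adjusted p = 4.5e-07 and 7.2e-07). These bounds hold for the background-corrected values only. Without background correction the fitted log2 differences were 4.17 and 4.52 for probe 1 and 3.21 and 3.31 for probe 2, in WT and Mapk9 KO, which are smaller than the bounds. A further Ldhc probe, not in the normalized table, was detected on 0 arrays, with signal intensities of 116 to 186, so the probes of Ldhc disagree.

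**Figure D2:**
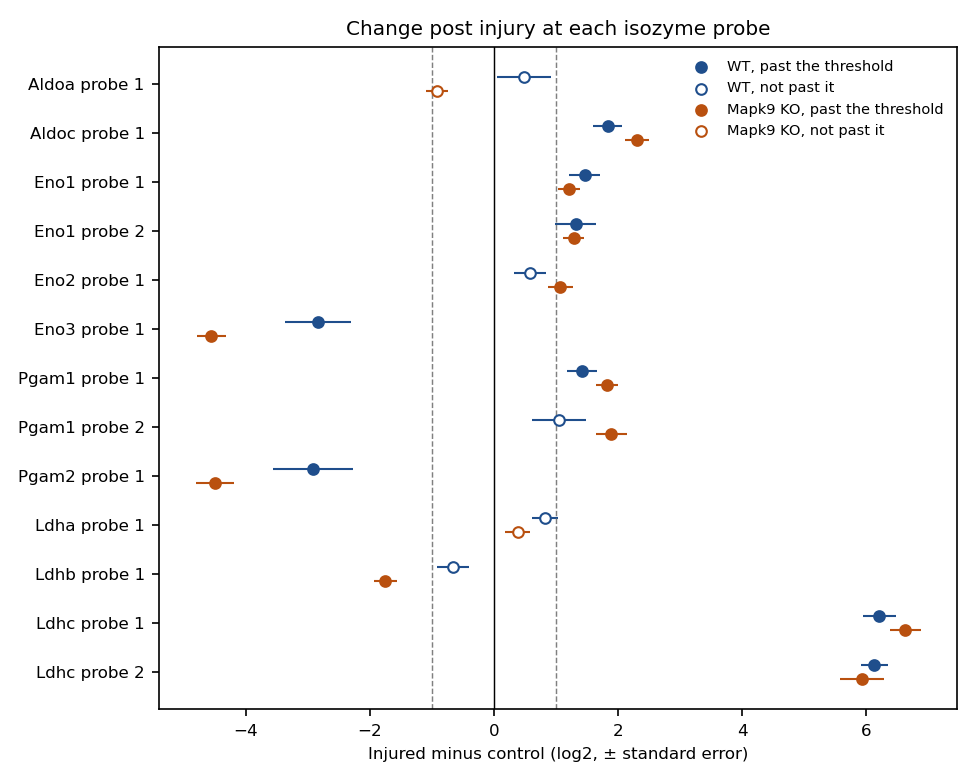
Log2 difference of injured minus control arrays (horizontal axis) with its standard error (bars) for the 13 probes, in WT (blue) and Mapk9 KO (orange), 3 arrays per group. Filled points are probes with an adjusted p under 0.05 and more than 2-fold change, marked by dashed lines. The Ldhc probes lie near 6, from fitted values that are no bound, and Eno3 and Pgam2 lie between -2.84 and -4.56.

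The balance of isozymes within each enzyme was followed as the log2 value of one isozyme minus that of another on the same array, which cancels any shift common to a whole array. Only the change of such a difference between conditions has a meaning, since probes differ in brightness. There were 8 such differences, tested with a two-sided exact permutation test, with condition labels permuted within each genotype (400 arrangements, smallest p = 0.005), and Benjamini-Hochberg adjustment over the 8. Within 1 genotype, 3 arrays against 3 cannot give a p below 0.1, so both genotypes were tested jointly. The arrangements did not pair samples by replicate number, and a paired form, whose smallest p is larger, is given in the last section.

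The shift in phosphoglycerate mutase was large: Pgam1 minus Pgam2 went from -2.25 ± 0.91 (SD, n = 3) in WT control to 2.08 ± 1.05 in WT injured. In Mapk9 KO it went from -3.83 ± 0.23 to 2.49 ± 0.85. The joint change was 5.33 (exact permutation p = 0.005, adjusted p = 0.00571). In enolase, Eno1 minus Eno3 changed by 5.03, from -1.02 ± 0.94 to 3.28 ± 0.59 in WT and from -2.51 ± 0.29 to 3.26 ± 0.36 in Mapk9 KO, and Eno2 minus Eno3 changed by 4.52 (both exact permutation p = 0.005, adjusted p = 0.00571). The ubiquitous and the neuronal form thus both gained on the muscle form.

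Between Eno1 and Eno2 the change was small. Eno1 minus Eno2 rose by 0.88 in WT, without overlap, and by 0.15 in Mapk9 KO, where the groups overlapped, and the joint change of 0.51 had an exact permutation p of 0.04 (adjusted p = 0.04). This result passed only narrowly. It was 0.34 (adjusted p = 0.165) after normexp background correction and quantile normalization, and its adjusted p was between 0.065 and 0.115 when 7 of the 12 arrays were left out one at a time.

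In aldolase the tissue-specific form gained on the ubiquitous one. Aldoa minus Aldoc changed by -1.35 in WT and by -3.22 in Mapk9 KO, and jointly by -2.29 (exact permutation p = 0.005, adjusted p = 0.00571). In lactate dehydrogenase, Ldha gained 1.81 on Ldhb (1.48 in WT, 2.13 in Mapk9 KO), and Ldhc gained on both. Since Ldhc was detected on 0 of 6 control arrays, its changes are bounds. With undetected values set to the lowest value of a detected probe, Ldha minus Ldhc changed by -5.04 or more in size and Ldhb minus Ldhc by -6.84 or more in size, and without background correction by -3.88 and -5.51. Each of the aldolase and lactate dehydrogenase differences had an exact permutation p of 0.005 and an adjusted p of 0.00571 on the deposited values, and their groups did not overlap in either genotype.

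**Figure D3:**
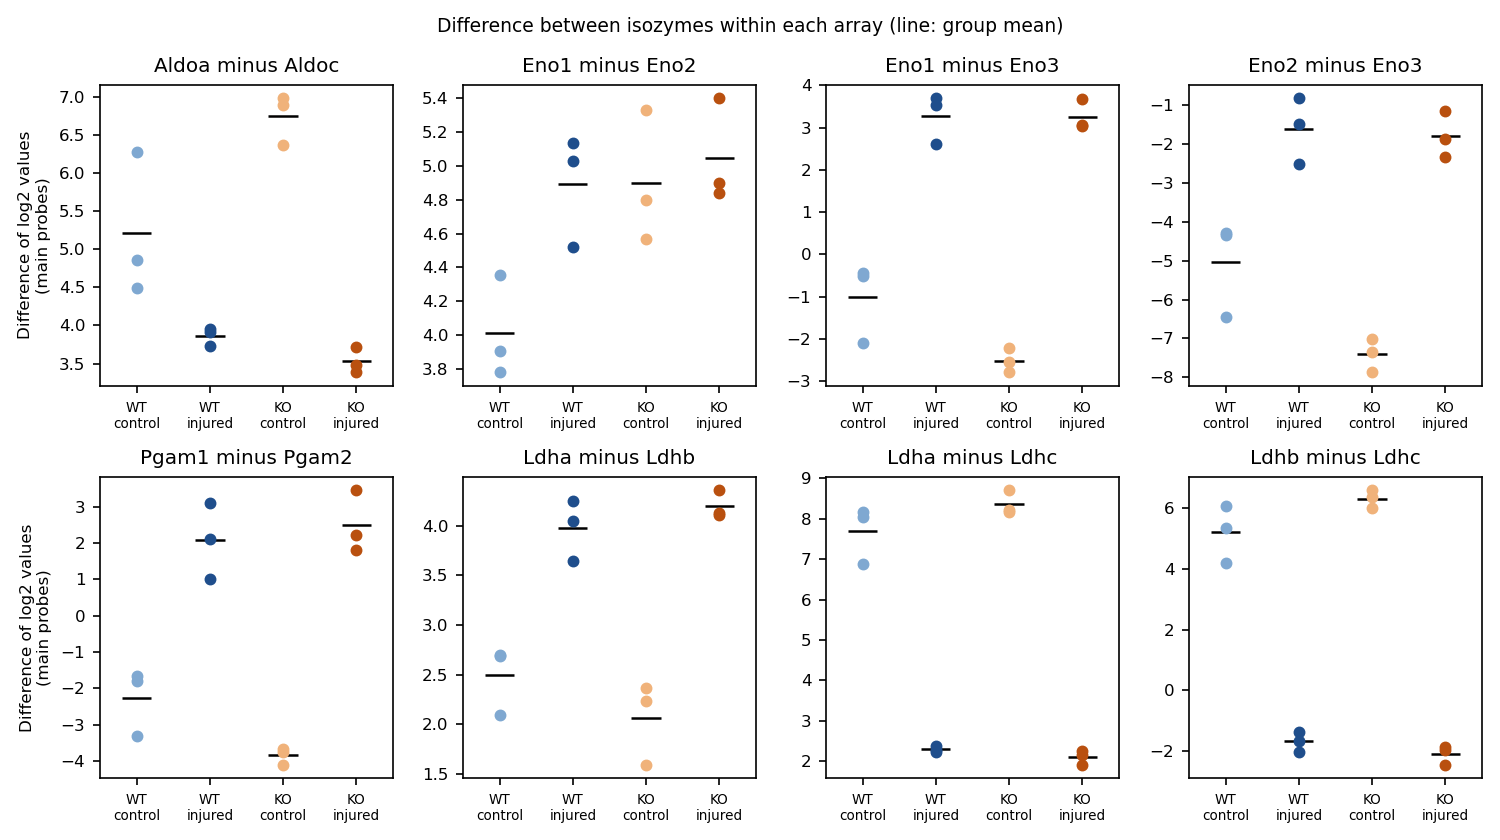
Difference of log2 values between the main probes of isozymes of one enzyme within each array (vertical axis, own scale in each panel) in the 4 groups. Points are arrays and lines are group means (n = 3). Pgam1 minus Pgam2 and Eno1 minus Eno3 are higher in every injured than in every control array, Ldhc was undetected in the control arrays, and the Eno1 minus Eno2 groups of Mapk9 KO overlap.

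The muscle forms were then set beside the other muscle genes of the samples. The list of 22 skeletal muscle genes, among them Acta1, Ckm and Myh4, had a mean log2 value of 10.58, 9.88 and 12 on the 3 WT control arrays. It was 7.34, 8.34 and 9.26 in WT injured, between 12.06 and 12.27 in Mapk9 KO control and between 7.72 and 8.82 in Mapk9 KO injured. In WT 18 of the 22 fell and in Mapk9 KO 21 of 22 fell, and 0 rose in either, with median differences of -2.66 and -4.42. In these bulk samples, fewer cells of a type and less RNA per cell cannot be told apart. The part of muscle RNA in the changes of Eno3, Pgam2, Ldhb and Aldoa was not tested.

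Over the 12 arrays, which share the 4 groups and the normalization, Eno3 correlated with the muscle mean at r = 0.993 and Pgam2 at r = 0.998. For deviations from the group means the values were 0.954 and 0.985, so these genes also followed the list among arrays of one group. Eno3 minus the muscle mean ranged from 1.06 to 1.37 in WT control and from 0.59 to 1.24 in WT injured, and in Mapk9 KO it ranged from 1.41 to 1.64 and from 0.73 to 1.21. Pgam2 minus the muscle mean ranged from 0.37 to 0.63 in WT control and from -0.16 to 0.31 in WT injured. In Mapk9 KO the latter ranged from 0.46 to 0.65 and from -0.29 to 0.33, so the ranges of control and injured arrays overlapped for Eno3 in WT and in no other of these cases.

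Ldhb and Aldoa followed the list in part. The r with the muscle mean was 0.957 for Ldhb and 0.544 for Aldoa, and 0.794 and 0.845 for deviations from the group means. Aldoa minus the muscle mean ranged from 0.97 to 1.11 in WT control and from 0.86 to 1.06 in Mapk9 KO control, and from 3.27 to 4.67 and from 3.57 to 4.51 in the injured arrays. Aldoa was thus at a nearly constant distance from the muscle mean in the 6 control arrays and at a larger one in the injured arrays. For Ldhb the distance ranged from -1.13 to 0.06 in WT control and from 0.59 to 2.17 in WT injured.

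**Figure D4:**
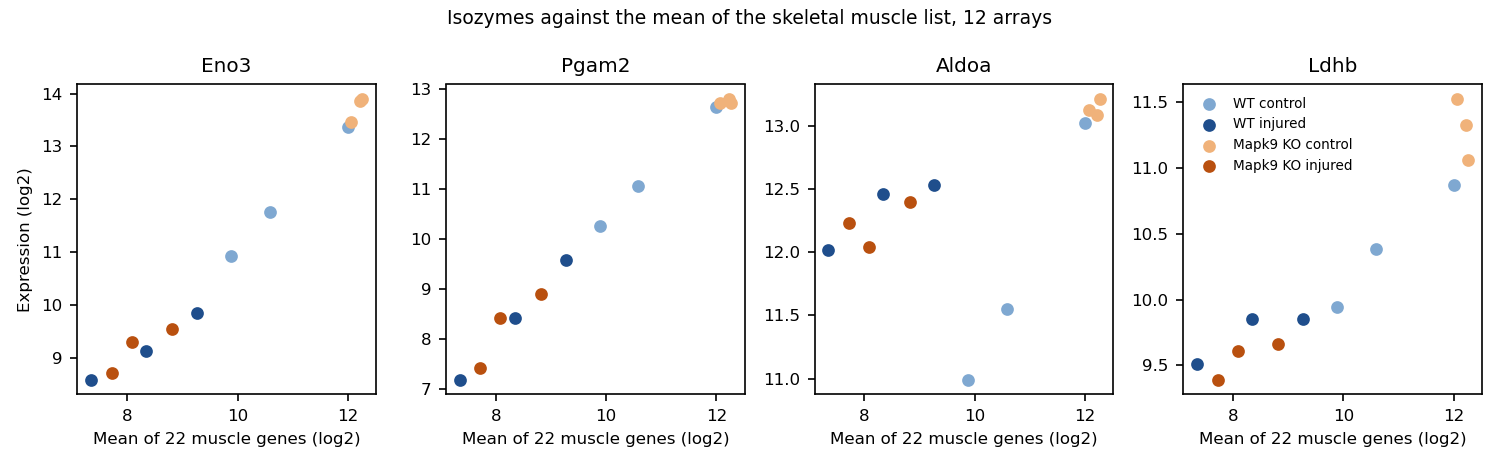
Log2 expression of Eno3, Pgam2, Aldoa and Ldhb (vertical axes, own scale in each panel) against the mean log2 value of 22 skeletal muscle genes (horizontal axis). Points are the 12 arrays, coloured by group. Eno3 and Pgam2 rise with the muscle mean over all 12 arrays, while the injured arrays of Aldoa lie above the low WT control arrays at a lower muscle mean.

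The genes most like each isozyme over the 12 arrays were found by Pearson correlation of main probes. For Eno3 they were Cmya5, Ttn and Rtn2 (r = 0.997, 0.996 and 0.996), and Ttn encodes the giant sarcomere protein titin. For Pgam2 they were Tpm2, Ckmt2 and Mybpc1 (0.997, 0.996 and 0.995), which encode a tropomyosin, a mitochondrial creatine kinase and a myosin-binding protein. For Ldhb they were Csrp3, Atp2a2 and Ppp1r1a (0.986, 0.986 and 0.982), and Atp2a2 encodes a calcium pump of heart and slow muscle. For Aldoa they were Cryab, Pgm2 and Trp53inp2 (0.968, 0.940 and 0.902). For Ldhc they were Nfil3, Plaur and Ccl4 (0.998, 0.998 and 0.997), a transcription factor, the urokinase receptor and a chemokine. For Aldoc they were Dlk2, Lrp2bp and Acvr1 (0.989, 0.989 and 0.988) and for Eno2 they were Clk2, Srebf1 and E030022H21 (0.970, 0.963 and 0.952). For Eno1 they were Nedd4l, LOC382127 and A730045A15Rik (0.995, 0.989 and 0.987) and for Pgam1 Egr2, Dusp14 and LOC195357 (0.990, 0.987 and 0.986). These correlations describe shared group differences as much as shared variation among arrays, and for deviations from the group means the closest genes to Ldhc were Trub2, Ncf4 and Stx11 (0.973, 0.972 and 0.972).

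Markers of the tissues for which Aldoc, Eno2 and Ldhc are best known were mostly low. Of 12 neuron and glia genes, 8 were in the table, and Snap25, Syt1, Nefl and Nefm were outside it and detected on 0 arrays. Between 4 and 6 of the 8 were detected per control array, 3 or 4 per WT injured array and 2 per Mapk9 KO injured array. The mean of the 8 was 6.15 to 6.23 in WT control and 5.88 to 6.09 in WT injured, and 6.33 to 6.63 and 5.76 to 5.96 in Mapk9 KO. Gfap fell in both genotypes and 0 of the 8 rose, whereas Aldoc rose in both genotypes.

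Of 12 male germ cell genes, 2 were in the table. Prm1, which encodes a protamine that packs sperm DNA, rose post injury 2.38-fold in WT (adjusted p = 0.0138, limma) and at least 2.30-fold in Mapk9 KO (adjusted p = 2.64e-05), with mean log2 values of 7.10 and 7.13 in the injured arrays. Spaca1 did not pass in either genotype. Of the others, Tnp1 was detected on 1 array, Prm2 had no probe, and Tnp2, Odf1, Akap4, Pgk2, Gapdhs, Zpbp, Acrv1 and Ddx4 were detected on 0 arrays. Pgk2 and Gapdhs are the germ cell isozymes of other glycolytic steps, and of these 3 germ cell isozymes only Ldhc was detected.

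The chondrocyte list rose with Aldoc, Eno1, Pgam1 and Ldhc. Its mean over 11 genes was 10.45 to 10.95 in WT control, 11.87 to 12.14 in WT injured, 10.28 to 10.97 in Mapk9 KO control and 11.88 to 12.11 in Mapk9 KO injured, and 7 of the 11 rose and 0 fell in each genotype. Over the log2 values, r with the list mean was 0.968 for Aldoc, 0.956 for Eno1, 0.941 for Pgam1 and 0.945 for Ldhc. For deviations from the group means it was 0.632, 0.664, 0.314 and -0.102, so Ldhc did not follow the list among arrays of one group. The part of the share of cartilage RNA in the rise of these isozymes was not tested. Red cell genes, a possible source of blood RNA, had list means of 12.30 to 13.27 over the arrays, and 1 of 6 fell in each genotype. The neutrophil and macrophage list had means of 11.20 to 11.80. Of its 11 genes in the table, 1 rose and 2 fell in WT, and 1 rose and 3 fell in Mapk9 KO. For deviations from the group means, Ldhc had an r of 0.775 with the red cell mean and of 0.674 with the neutrophil and macrophage mean. Over the log2 values these were -0.592 and 0.0176. The part of RNA of these cells in the rise of Ldhc was not tested.

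The other steps of glycolysis were read in the same way. Of 20 further glycolysis genes, 14 were in the table. By their brightest probe, 6 rose and 2 fell in WT and 5 rose and 2 fell in Mapk9 KO, with median differences of 0.763 and 0.565. Phosphofructokinase commits sugar to glycolysis and has 3 isozymes. The platelet form Pfkp rose 2.53 on the log2 scale in WT (adjusted p = 0.00151, limma) and 3.26 in Mapk9 KO (adjusted p = 8.99e-07), and the liver form Pfkl rose 1.66 and 1.70 (adjusted p = 0.000333 and 2.53e-05). The muscle form Pfkm fell by 1.38 in WT (adjusted p = 0.0246) and by 2.53 in Mapk9 KO (adjusted p = 2.3e-06), as Eno3 and Pgam2 did.

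Hexokinase traps glucose in the cell. Hk2 rose 1.98 in WT and 1.72 in Mapk9 KO on the log2 scale (adjusted p = 0.000229 and 2.14e-05, limma), and Hk3 rose 1.63 and 1.64 (adjusted p = 0.00252 and 9.05e-05). Gpi1, which converts glucose 6-phosphate to fructose 6-phosphate, rose 1.04 in WT (adjusted p = 0.00335), and Pgk1, the ubiquitous phosphoglycerate kinase, rose 1.29 (adjusted p = 0.00686). In Mapk9 KO their brightest probes had differences of 0.61 and 0.92, under the fold limit, while another Gpi1 probe rose 1.22 (adjusted p = 0.00487). Hk1 (1.53; adjusted p = 0.0023) and the dimmer of the Pkm probes, for pyruvate kinase (1.71; adjusted p = 3.37e-05), also rose in Mapk9 KO and did not pass in WT. Ldhd, a lactate dehydrogenase for the D form, was detected on 0 injured arrays and was at least 1.03-fold lower in WT (adjusted p = 0.0168) and at least 1.35-fold lower in Mapk9 KO (adjusted p = 0.000256). Gapdhs, Pgk2, Eno4, Pklr and Hkdc1, forms of restricted tissue range, were outside the table and detected on 0 arrays.

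**Figure D5:**
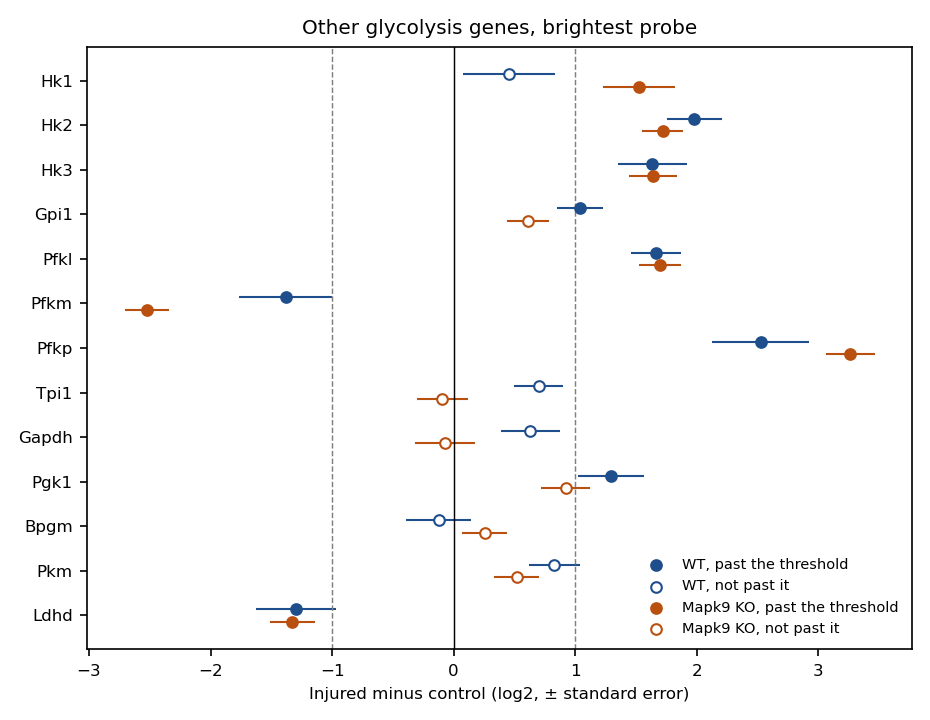
Log2 difference of injured minus control arrays (horizontal axis) with its standard error (bars) for the brightest probe of 13 other glycolysis genes that were detected on at least 1 array, in WT (blue) and Mapk9 KO (orange), 3 arrays per group. Filled points are probes with an adjusted p under 0.05 and more than 2-fold change, marked by dashed lines. Pfkp and Pfkl lie to the right and Pfkm to the left in both genotypes.

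Levels were also compared between genotypes. In the control arrays 0 of the 13 probes passed, against 0.119% of all probes, and 5 had an unadjusted p under 0.05 in limma, as had 1356 of all 21004 probes. Eno3 differed by 1.72 (unadjusted p = 0.00476), Pgam2 by 1.44 (0.0111), Aldoa by 1.28 (0.0108) and Ldhb by 0.90 (0.00605), each higher in every Mapk9 KO control array than in every WT control array. Eno2 was lower by 0.66 (0.0329). The muscle list mean was 12.06 to 12.27 in Mapk9 KO control and 9.88 to 12 in WT control. Without WT control replicate 3, the WT control array with the highest muscle mean, Eno3, Pgam2 and Aldoa passed (2.40, 2.10 and 1.87 on the log2 scale; adjusted p = 0.00119, 0.0017 and 0.0019), and 358 probes passed upward in place of 6. Without WT control replicate 2, the one with the lowest muscle mean, the differences of Eno3, Pgam2 and Aldoa were 1.18, 0.91 and 0.85 and did not pass.

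In the injured arrays 0 of the 13 probes differed between genotypes past the threshold, against 0.181% of all probes, and the differences ranged from -0.18 to 0.57. For the difference between the injury effects, 0 of the 13 and 0 of 21004 probes passed in limma, where 2088 probes had an unadjusted p under 0.05. With the replicate number as a block, 102 probes passed upward and 10 downward, with no isozyme probe among them. Without the block, beside Ldhb and Aldoa, Eno3 had a difference of -1.72 (adjusted p = 0.417) and Pgam2 of -1.58 (adjusted p = 0.55). Without WT control replicate 3, those of Eno3, Aldoa and Ldhb passed (-2.40, -1.98 and -1.32; adjusted p = 0.0278, 0.00538 and 0.0442), among 217 probes that passed downward and 25 upward of 21004. That of Pgam2 did not pass without this array either (-2.25; adjusted p = 0.224), so the calls of Eno3, Aldoa and Ldhb depended on 1 array.

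The promoters of the genes were searched because Aldoc, Eno1, Pgam1 and Ldhc rose together. The windows ran from 250 bases before to 50 after each start in RefSeq (GRCm38.p6), and both strands were read. ACGTG, the core bound by hypoxia-inducible factors, was in 5 of 17 windows of the 10 genes, those of Aldoa, Aldoc, Ldha and Pgam1, and in 19.6% of all 32851 windows. CACGTG, the E box, which contains ACGTG, was in the Ldha window alone, against 7.15% of windows, and TGAGTCA or TGACTCA, the AP-1 motif, was in an Aldoa window alone, against 5.2%. The stretches of 2 genes, the window with the most ACGTG matches (Ldha) and that of a gene that rose (Pgam1), are shown from RefSeq with the matches on either strand in capitals, at chr7:46845639-46845794 and chr19:41911737-41911781 (plus strand).
Ldha: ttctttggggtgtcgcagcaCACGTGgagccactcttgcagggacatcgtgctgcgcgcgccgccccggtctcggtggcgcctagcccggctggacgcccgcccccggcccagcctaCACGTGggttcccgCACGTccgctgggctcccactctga
Pgam1: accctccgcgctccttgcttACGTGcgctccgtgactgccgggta
Of the 4 genes with a match, Aldoc and Pgam1 rose in both genotypes and Aldoa and Ldha did not pass, and Eno1 and Ldhc rose without a match in these windows. Ldha and Ldhc lie near each other on chromosome 7, with 1 lncRNA gene between them in RefSeq.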

How the data were processed

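Total RNA of 12 samples was measured on Illumina BeadChips. The authors deposited bead signal intensities for each probe, not background-corrected, each with a detection p-value. Per the methods, the authors subtracted background estimated from negative controls and transformed the intensities with vsn, and they deposited the log2 values of 21004 probes. Versions of these packages are not given in the sources used here. The log2 values were used as deposited, and 0 columns of values were without a sample. Samples were grouped by their labels.

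R 4.3.3 and limma 3.58.1 (the functions lmFit and eBayes) were used to fit every probe, using the 2 groups compared, or all 4 for the interaction, and p-values were adjusted (Benjamini-Hochberg) over the whole table. A call needed an adjusted p under 0.05 and more than 2-fold change, and for the interaction the adjusted p alone. A bound was used where a probe was detected on 0 arrays of a group: the mean of the other group against the mean of the lowest value of a detected probe on each array (or the probe's own value, where higher). Within-array isozyme differences used the probe with the highest mean and an exact permutation test. The limma fits of the injury effect and the permutation test were tested on simulated data.

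The 10 isozyme genes and the gene lists were chosen with earlier results of these data known. All member probes are named, with the other glycolysis genes that passed in WT, the 3 genes most correlated over the log2 values with each member set beside a marker list (over deviations from the group means they are given for Ldhc alone), and markers of lists that move with a member. Tpi1, Gapdh and others are given by count, and some genes of the lists are not reported here. Names were matched to RefSeq: the accession named 12081 probes, the symbol 3207, a former symbol 2784 and the gene ID 9, while 2923 kept the file's name. Probe coordinates were not used, since the files name no build.

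Samples share replicate numbers in the labels. The 18 same-numbered pairs of samples had correlations of 0.153 to 0.39 for their deviations from group means and the 36 other pairs -0.289 to 0.0825, so the numbers were taken to pair the samples. The main limma fits and the main permutation test do not use this pairing, and the replicate number was a block in an alternative fit. Correlations between arrays were 0.868 to 0.986 and 0 pairs were identical. The methods call the replicates independent, each of pooled animals. The other alternatives were normexp (neqc, offset 16) followed by quantile normalization, the latter alone on uncorrected intensities, and subtracted array medians. Further ones were a filter to the 19992 probes that 3 or more arrays detected, 1 fit to all 12 arrays, and a block for the number in the sample code. Student's t-test, no fold limit, the second probe of a gene, and leaving out each array were also used. The methods state this t-test for metabolite features, and a figure legend of the study names it for gene expression too. Setting undetected values to the lowest value of a detected probe in the isozyme differences was chosen after seeing the data.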

Additional observations from a re-analysis of the deposited data

How the results depend on the processing

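With the replicate number as a block, 7 isozyme probes were called up in WT in place of 6, Pgam1 probe 2 being added (adjusted p = 0.00681, limma), and the block changed no other call of an isozyme. A block for the number in the sample code added the same probe (adjusted p = 0.0333). Over all probes the replicate block gave 102 interaction calls up and 10 down in place of 0, and 156 up and 32 down in place of 15 and 23 for genotype in the injured arrays. The isozyme differences within pairs of one number each had an exact p of 0.0312, the smallest that 6 pairs allow. With Student's t-test, 0 isozyme probes fell in WT (Eno3 adjusted p = 0.104, Pgam2 0.142), against 640 of all 21004 probes. Both Eno1 probes lost their call (0.0518 and 0.138), and 984 of all probes passed upward. Over the arrays left out, the WT calls ranged from 5 to 8 up and stayed at 2 down, those in Mapk9 KO from 7 to 8 up and 3 to 4 down, genotype calls up in the control arrays from 0 to 3 and interaction calls down from 0 to 3. The upper values of the last 2 both came without WT control replicate 3. Of all 21004 probes, the WT calls over the arrays left out ranged from 1471 to 1654 up and from 1253 to 1800 down. Those in Mapk9 KO ranged from 1992 to 2102 up and from 1846 to 2089 down. Eno1 minus Eno2 ranged from 0.42 to 0.62 and was 0.34 with normexp and quantile normalization. Without background correction, the fitted difference of Ldhc probe 1, undetected on all control arrays, was 4.17 in WT and 4.52 in Mapk9 KO in place of 6.21 and 6.63, below the bound given for the background-corrected values, and in Mapk9 KO Eno2 (0.55) and Pgam1 probe 2 (0.52) were under the fold limit. Aldoa in Mapk9 KO passed without Mapk9 KO injured replicate 2 (-1.0) and with no fold limit, which also added Ldha in WT. The sign of small genotype differences (unadjusted p of 0.1 or more) changed under some setting for 4 probes in the control arrays, 7 in the injured arrays and 3 in the interaction. The alternatives not named here gave no further change of a call for the 13 probes or the 8 differences. Dim probes limit Pgam1 probe 2 and the control values of Ldhc, which have only an upper bound.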
